A study of Homo sapiens with 6 samples.

Results

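The AP-1 transcription factor genes FOS, FOSB, FOSL1, FOSL2, JUN, JUNB, JUND, ATF3 and BATF3 were followed in HT-1080 cells, a human fibrosarcoma line, by RNA sequencing read counts. The 9 genes were chosen by symbol, and all 9 were among the 26286 genes listed in the deposited tables. Palbociclib (2 µM), which inhibits the cyclin-dependent kinases CDK4 and CDK6, and pimasertib (500 nM), which inhibits the ERK-activating kinases MEK1 and MEK2, were each set against the vehicle DMSO. All cells were grown in DMEM with 10% FBS, and every treatment, vehicle included, lasted 48 h. Each group had 2 libraries. The labels number them and do not tell whether they are independent cultures, so the error behind each p-value is that between libraries and could be technical.

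AP-1 is a family of dimers of basic leucine zipper (bZIP) proteins. JUN proteins pair with each other or with FOS proteins, and the pair binds the DNA element TGANTCA, while dimers with ATF proteins favour the longer cAMP-response-like element. ERK signalling feeds AP-1 at several points, through the ternary complex factors that switch on FOS and through phosphorylation that stabilises FOS-group proteins, and FOSL1 (Fra-1) is a well-known transcript of cells with active RAS and ERK. HT-1080 cells are known to carry an activated NRAS gene. ATF3 is a stress-induced bZIP protein, and BATF3 is a short bZIP protein that pairs with JUN proteins and is best known from dendritic cells.

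Promoter sequences were available for 7 of the 9 genes, and the stretches with an AP-1-like or CRE-like match are shown because these genes encode factors that bind such elements. The windows cover the 250 bases before the RefSeq transcript start on GRCh38.p14, and no window was available for FOSL1 and BATF3. By the GENCODE exons, an exon of JUN already begins at or before the upstream end of its window. An exon of FOSL2 begins within the stretch shown, after the match. The motifs TGANTCA, TGACNTCA and TGACGTNA were searched on both strands, together with the CArG box bound by SRF. TGACGTCA matches both TGACNTCA and TGACGTNA and was counted under each. In each line below the capitals mark the match.

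FOSL2, chr2:28392781-28392810, plus strand: gagtctggggtTGACGTGAgtgaatccaca
JUN, chr1:58784096-58784125, minus strand: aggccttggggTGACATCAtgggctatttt
JUND, chr19:18281804-18281833, minus strand: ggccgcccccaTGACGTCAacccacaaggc
ATF3, chr1:212565273-212565302, plus strand: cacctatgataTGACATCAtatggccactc
FOSB, chr19:45467925-45467954, plus strand: caaggggcgggTGACGTAAgcaggggggcg

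The match began 66 bases before the start in FOSL2, 67 in JUN, 60 in FOSB, 200 in JUND and 123 in ATF3, where it lies before the upstream of the 2 listed starts. None of the 3 motifs was found before FOS, JUNB or the downstream start of ATF3, and neither TGANTCA nor a CArG box was found in any member's window. The FOS window does hold tgacgttt, which departs from TGACGTNA only in its last letter and was not counted. Nor were tgacgcga before JUNB and cgacgtca before JUND, the latter read on the other strand, which also depart from it in 1 letter. Looser matches and sequence beyond these 250 bases were not searched. Over all 35116 windows of this length, 13.8% held at least 1 of the 3 motifs, 6.57% held TGANTCA, 6.87% TGACNTCA, 2.67% TGACGTNA and 1.16% a CArG box. JUNB is shown as an example of a window without a counted match in its 250 bases, so no letter is in capitals. Whether a match bears on the response to either drug was not tested.

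JUNB, chr19:12791236-12791485, plus strand: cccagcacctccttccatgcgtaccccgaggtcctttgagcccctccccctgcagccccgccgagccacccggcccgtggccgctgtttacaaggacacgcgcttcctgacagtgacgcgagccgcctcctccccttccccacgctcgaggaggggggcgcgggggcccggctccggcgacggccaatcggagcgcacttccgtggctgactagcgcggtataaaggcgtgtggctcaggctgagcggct

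Library totals ranged from 13607490 to 17500655 counts, and a count of 3 corresponded to 0.168 to 0.220 CPM, a count scaled to the TMM-adjusted library total. Transcripts of 13 mitochondrial genes took 3.21% to 8.76% of a library, more in replicate 2 of every group. Vimentin, a mesenchymal filament protein, was at 1116 ± 107, 592 ± 113 and 994 ± 7.90 CPM in palbociclib, pimasertib and DMSO (SD, n = 2 each). Vimentin belongs to a list of 18 mesenchymal genes. Their summed level was 9577 to 12800 CPM in palbociclib, 13755 to 17923 CPM in pimasertib and 6877 to 9612 CPM in DMSO. Of the 17 tested, 7 rose and 3 fell with pimasertib at an adjusted p under 0.05. Over all tested genes 11.1% were higher and 11.7% lower. The largest rises were in TAGLN, SPARC, CALD1 and FN1 (log2 fold changes 4.66, 2.77, 1.98 and 1.44). CD44, TWIST2 and ZEB1 fell (-1.86, -1.22 and -0.86). TAGLN, SPARC, CALD1 and CD44 passed under all 14 alternative settings, and FN1, TWIST2 and ZEB1 did not. Vimentin itself did not pass (log2 fold change -0.75; edgeR adjusted p = 0.0505). The summed level of 10 epithelial markers was 3.45 and 14.2 CPM in the palbociclib libraries, 2.02 to 3.17 CPM in pimasertib and 2.31 to 3.18 CPM in DMSO, and that of 10 leukocyte markers was 0.582 to 2.80 CPM. Palbociclib replicate 2 stood apart in several low genes, with 164 counts of the keratin gene KRT19, 36 of KRT14, 102 of S100A4, 73 of HSPB1 and 115 of EGR1, where none of the other 5 libraries had over 20 counts of any of these. They were named after their values were seen, and their part in the palbociclib results was not tested. The endothelial list was at 146 to 417 CPM, nearly all of it from TIE1 and ROBO4, while the defining markers VWF and CDH5 had at most 5 counts in any library. In bulk RNA, fewer cells that express a gene and less RNA per cell cannot be told apart.

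With pimasertib, 7 of the 8 AP-1 members that passed the filter on low counts changed. FOSL1, BATF3 and JUN fell, and FOSL2, JUND, JUNB and ATF3 rose. At an adjusted p under 0.05 (edgeR's quasi-likelihood test, Benjamini-Hochberg adjustment over 14839 genes), 22.8% of all tested genes were called in this comparison, 11.1% as higher and 11.7% as lower. Palbociclib changed 1 of the 8, FOSL1, which fell, where 3.54% of all tested genes were called, 1.11% as higher and 2.44% as lower. Set directly against palbociclib, pimasertib changed 4 of the 8, with FOSL1 lower and JUNB, JUND and ATF3 higher, and 9.39% of all tested genes were called, 5.07% as higher and 4.31% as lower. A fit with a term for the replicate number also called JUNB, ATF3 and BATF3 with palbociclib, and FOSL2, JUN and BATF3 between the drugs. That fit called more of all tested genes in each comparison, and the labels do not tell whether the numbers mark shared cultures. Both comparisons with DMSO use the same DMSO libraries. Without pimasertib replicate 2, 4 members passed against DMSO, and without either pimasertib library ATF3 alone passed against palbociclib.

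**Figure D1:**
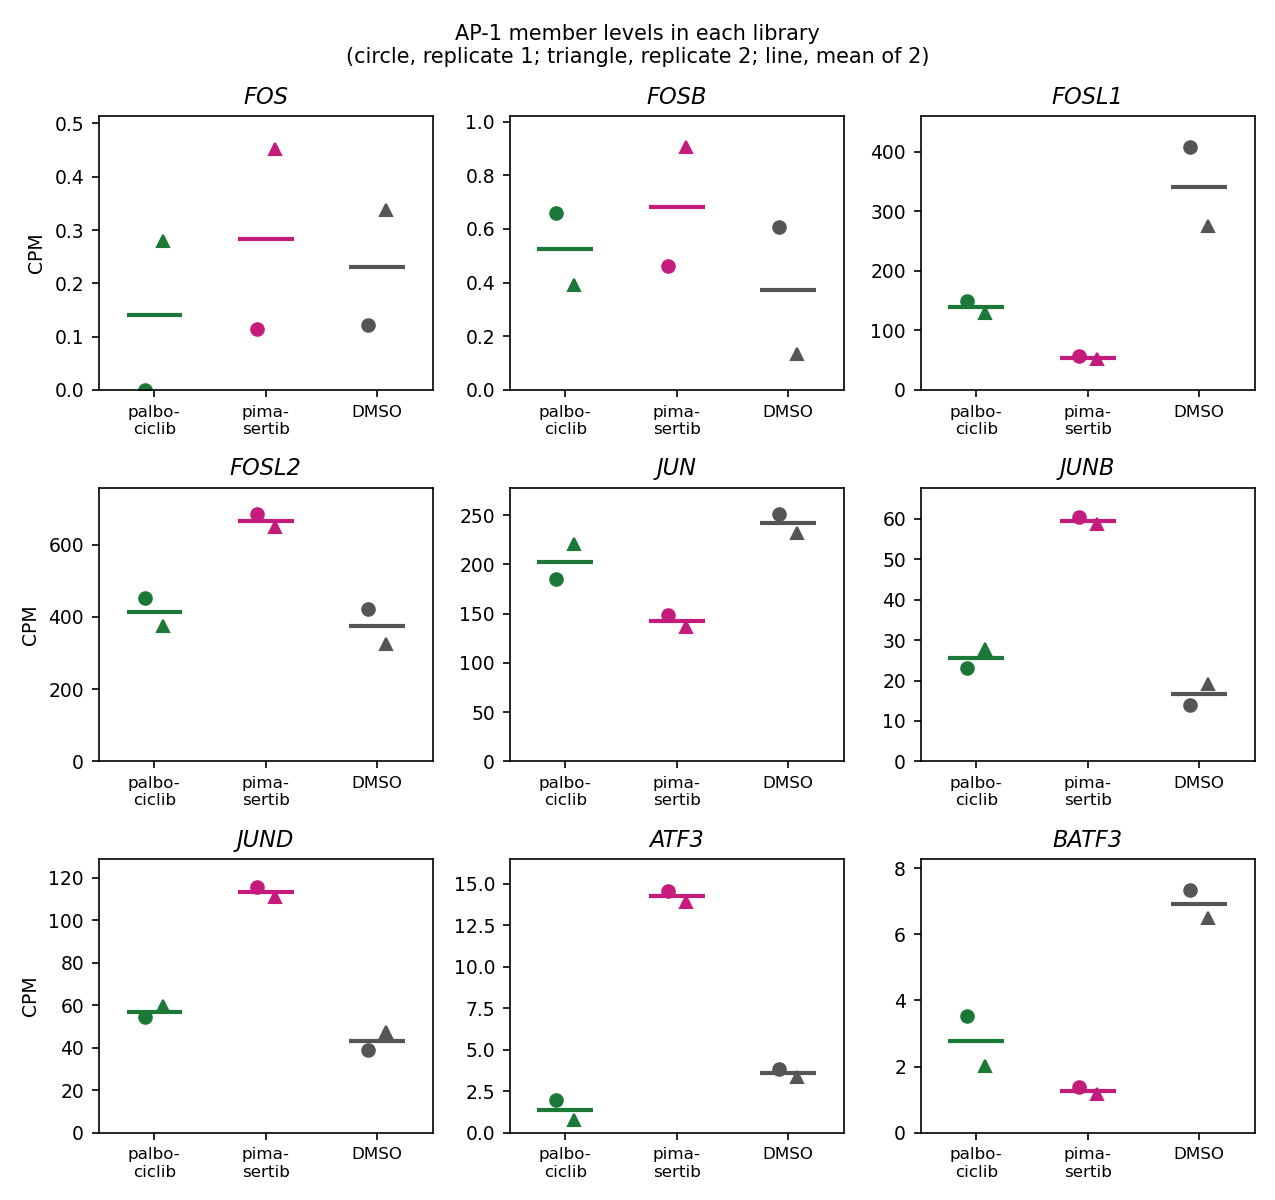
CPM (vertical axes, linear from 0, scaled per gene) of the 9 AP-1 members in each library of palbociclib, pimasertib and DMSO, with circles for replicate 1, triangles for replicate 2 and a line at the mean of 2. The pimasertib libraries lie below both other groups for FOSL1, JUN and BATF3 and above them for FOSL2, JUNB, JUND and ATF3, while FOS and FOSB stay under 1 CPM in every library.

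FOSL1 encodes Fra-1, a FOS-group protein without the transactivation domain of FOS (ENSG00000175592, GRCh37 chromosome 11, positions 65659520 to 65668044, minus strand). Its level was 57.1 and 51.6 CPM in the pimasertib libraries, 150 and 129 CPM in the palbociclib libraries, and 408 and 275 CPM in the DMSO libraries. No 2 groups overlapped, pimasertib was lowest, and replicate 2 was the lower library in each group. The pimasertib mean of 54.3 ± 3.89 CPM was 6.29-fold lower than the DMSO mean of 341 ± 93.6 CPM (SD, n = 2 each), with a log2 fold change of -2.65 (SE 0.26; edgeR adjusted p = 1.24e-04). This call held under all 14 alternative settings, with log2 fold changes between -2.91 and -2.35.

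In palbociclib, FOSL1 averaged 139 ± 14.9 CPM, 2.45-fold lower than in DMSO, with a log2 fold change of -1.29 (SE 0.25; edgeR adjusted p = 0.0174). That call was lost without DMSO replicate 1 (adjusted p = 0.0645), palbociclib replicate 2 (0.0932), pimasertib replicate 1 (0.0525) or pimasertib replicate 2 (0.0544), and in a fit of the comparison's own 4 libraries (0.0581). FOSL1 was also lower in pimasertib than in palbociclib, by 1.36 on the log2 scale (SE 0.25; log2 fold change -1.36; edgeR adjusted p = 0.00690), a call lost without either pimasertib library (0.0659 without replicate 1 and 0.106 without replicate 2).

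FOSL2 encodes Fra-2, the closest relative of Fra-1 (ENSG00000075426, chromosome 2, positions 28615315 to 28640179, plus strand). Its level was 683 and 648 CPM in the pimasertib libraries, 453 and 374 CPM in the palbociclib libraries, and 422 and 326 CPM in the DMSO libraries. Both pimasertib libraries stood above the other 4, and the palbociclib and DMSO libraries overlapped. FOSL2 rose with pimasertib to 666 ± 25.04 CPM, against 374 ± 68.0 CPM in DMSO, a log2 fold change of 0.83 (SE 0.24; edgeR adjusted p = 0.0312). The call was lost without DMSO replicate 2 (0.152), pimasertib replicate 1 (0.141) or pimasertib replicate 2 (0.126). In palbociclib it was 0.15 (SE 0.24; edgeR adjusted p = 0.807). The direct difference between pimasertib and palbociclib, 0.69 (SE 0.24), did not pass either (edgeR adjusted p = 0.105). It did in 2 of the 14 alternatives, DESeq2 (adjusted p = 0.0282) and the replicate term (edgeR adjusted p = 6.47e-04).

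FOS, the founding immediate-early member, and FOSB, its close relative, were barely detected at this time point. FOS had 0 and 5 counts in palbociclib, 2 and 7 in pimasertib and 2 and 5 in DMSO, and did not pass the filter. FOSB had 9 and 7 counts in palbociclib, 8 and 14 in pimasertib and 10 and 2 in DMSO. The groups overlapped for both genes, and no change was detectable at this depth, with edgeR adjusted p of 0.860 for FOSB in palbociclib and 0.563 in pimasertib, each against DMSO, and 0.836 between pimasertib and palbociclib. FOSB lies within the span of ERCC1 on the opposite strand, and no source used here tells whether counting was strand-specific.

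JUN, which encodes the main partner of FOS proteins (ENSG00000177606, chromosome 1, positions 59246465 to 59249785, minus strand), had levels of 149 and 137 CPM in the pimasertib libraries, 185 and 221 CPM in the palbociclib libraries, and 252 and 232 CPM in the DMSO libraries. The 3 groups did not overlap. JUN fell with pimasertib to 143 ± 8.57 CPM, against 242 ± 13.9 CPM in DMSO, a log2 fold change of -0.76 (SE 0.22; edgeR adjusted p = 0.0294). The call was lost without DMSO replicate 1 (0.131), pimasertib replicate 1 (0.107) or pimasertib replicate 2 (0.194). In palbociclib the log2 fold change was -0.25 (SE 0.21; edgeR adjusted p = 0.597), and between pimasertib and palbociclib it was -0.51 (SE 0.21; edgeR adjusted p = 0.176). The difference between the drugs passed only with the replicate term (edgeR adjusted p = 0.00793).

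JUNB encodes a JUN-group protein that can restrain JUN (ENSG00000171223, chromosome 19, positions 12902310 to 12904124, plus strand). Its level was 60.4 and 58.7 CPM in the pimasertib libraries, 23.0 and 27.9 CPM in the palbociclib libraries, and 14.0 and 19.2 CPM in the DMSO libraries. The pimasertib libraries lay far above the rest, and palbociclib lay just above DMSO without overlap. JUNB rose 3.58-fold with pimasertib to 59.6 ± 1.17 CPM, against 16.6 ± 3.66 CPM in DMSO, with a log2 fold change of 1.84 (SE 0.23; edgeR adjusted p = 4.63e-04) that was called under all 14 alternatives. In palbociclib it was 0.62 (SE 0.22; edgeR adjusted p = 0.175) and passed only with the replicate term (edgeR adjusted p = 0.0164). Pimasertib exceeded palbociclib by 1.22 (SE 0.22; edgeR adjusted p = 0.00664), which was lost without either pimasertib library (0.0564 without replicate 1 and 0.0603 without replicate 2). All 1815 bases of JUNB lie within the span of HOOK2 on the opposite strand, and if counting was not strand-specific, reads of the 2 genes cannot be told apart where exons overlap. HOOK2 had 396 and 619 counts in pimasertib and 148 and 179 in DMSO, a log2 fold change of 1.57 (SE 0.36; edgeR adjusted p = 0.0114, but 0.0612 without DMSO replicate 1 and 0.136 without pimasertib replicate 2), and the part of its reads in the JUNB result was not tested.

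JUND, whose product is known from mouse fibroblasts to slow growth (ENSG00000130522, chromosome 19, positions 18390563 to 18392432, minus strand), stood at 115 and 111 CPM in the pimasertib libraries, 54.3 and 59.6 CPM in the palbociclib libraries, and 39.1 and 47.6 CPM in the DMSO libraries. As for JUNB, the order was pimasertib, palbociclib, DMSO, with no overlap. JUND rose 2.61-fold with pimasertib to 113 ± 3.05 CPM, against 43.3 ± 6.04 CPM in DMSO, with a log2 fold change of 1.39 (SE 0.20; edgeR adjusted p = 0.00116) that was called under all 14 alternatives. In palbociclib it was 0.40 (SE 0.20; edgeR adjusted p = 0.336). The direct difference between pimasertib and palbociclib was 0.99 (SE 0.20; edgeR adjusted p = 0.0118) and was lost without palbociclib replicate 1 (0.0784), pimasertib replicate 1 (0.0799) or pimasertib replicate 2 (0.0752).

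ATF3 (ENSG00000162772, chromosome 1, positions 212738676 to 212794119, plus strand) was high with pimasertib and low with palbociclib. Its level was 14.6 and 13.9 CPM in the pimasertib libraries, 1.98 and 0.784 CPM in the palbociclib libraries, and 3.83 and 3.38 CPM in the DMSO libraries. No 2 groups overlapped, with DMSO between the drugs. ATF3 rose 3.95-fold with pimasertib to 14.2 ± 0.476 CPM, against 3.60 ± 0.316 CPM in DMSO, a log2 fold change of 1.98 (SE 0.38; edgeR adjusted p = 0.00499), which just missed the threshold without pimasertib replicate 2 (0.0504). In palbociclib, at 1.38 ± 0.846 CPM, the log2 fold change was -1.41 (SE 0.42), which did not pass (edgeR adjusted p = 0.104), though it did in 3 of the 14 alternatives, among them those without palbociclib replicate 1 (0.00594) and with low-count genes kept (0.0203). Pimasertib exceeded palbociclib 10.3-fold, with a log2 fold change of 3.39 (SE 0.42; edgeR adjusted p = 6.55e-04) that was called under all 14 alternatives. That difference exceeded those of 99.2% of all tested genes.

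BATF3 (ENSG00000123685, chromosome 1, positions 212859760 to 212873327, minus strand) was lowest with pimasertib. Its level was 1.38 and 1.16 CPM in the pimasertib libraries, 3.52 and 2.02 CPM in the palbociclib libraries, and 7.35 and 6.49 CPM in the DMSO libraries. These values rest on 24 and 18 reads in pimasertib, 48 and 36 in palbociclib and 121 and 96 in DMSO, and no 2 groups overlapped. BATF3 fell with pimasertib to 1.27 ± 0.155 CPM, against 6.92 ± 0.608 CPM in DMSO, 5.43-fold lower, with a log2 fold change of -2.43 (SE 0.43; edgeR adjusted p = 0.00323) that was called under all 14 alternatives. In palbociclib the log2 fold change was -1.33 (SE 0.40; edgeR adjusted p = 0.112), and between pimasertib and palbociclib it was -1.10 (SE 0.43; edgeR adjusted p = 0.146). Both passed only with the replicate term (edgeR adjusted p = 0.0131 and 0.0456).

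**Figure D2:**
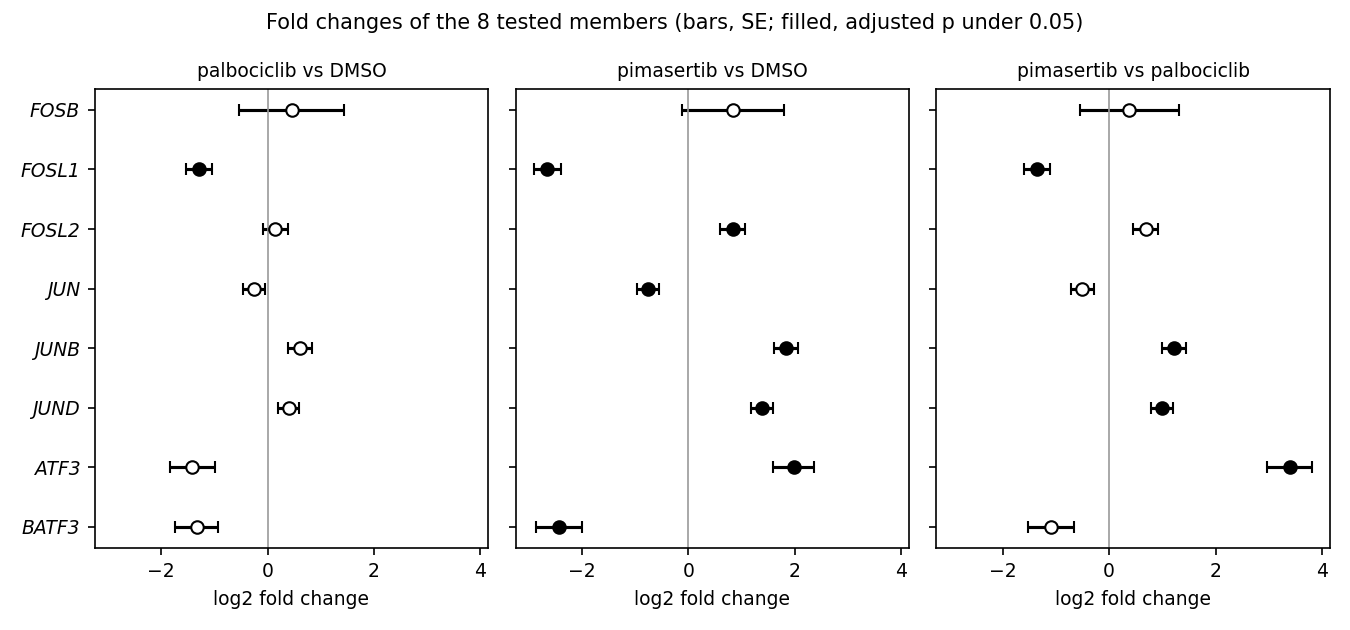
Log2 fold changes (horizontal axes) of the 8 tested AP-1 members with SE bars in the 3 comparisons, where filled circles mark an adjusted p under 0.05. Of the 8, 1 is filled for palbociclib against DMSO, 7 for pimasertib against DMSO and 4 for pimasertib against palbociclib, with ATF3 furthest to the right in the last, at 3.39.

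The authors' deposited tables call the same members against DMSO. At an adjusted p under 0.05, the authors' deposited table for pimasertib lists FOSL1, FOSL2, JUN, JUNB, JUND, ATF3 and BATF3, and the authors' deposited table for palbociclib lists FOSL1, at 1.13e-04. The authors' deposited tables give no adjusted p for FOS and FOSB in palbociclib, nor for FOS in pimasertib.

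Levels were compared between genes by FPKM, which divides a gene's reads by its length. In DMSO, FOSL1 was highest at 201 ± 55.1 FPKM, followed by JUN at 71.5 ± 4.12, FOSL2 at 54.8 ± 9.96, JUND at 22.8 ± 3.17, JUNB at 8.997 ± 1.98, BATF3 at 2.89 ± 0.253 and ATF3 at 1.67 ± 0.146 FPKM (SD, n = 2 each). Each neighbouring pair in this order was separated in both DMSO libraries, except FOS and FOSB at the bottom, which overlapped below 0.16 FPKM. By mean FPKM, FOSL1 ranked 195 of the 16390 protein-coding genes in DMSO.

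With pimasertib the order was FOSL2 at 99.6 ± 6.13 FPKM, JUND at 60.8 ± 3.09, JUN at 43.2 ± 3.62, JUNB at 32.9 ± 1.44 and FOSL1 at 32.7 ± 3.12 FPKM, the last pair overlapping, and then ATF3 at 6.75 ± 0.387 and BATF3 at 0.543 ± 0.0788 FPKM. FOSL1 ranked 1750 among protein-coding genes and FOSL2 457. With palbociclib FOSL1 stayed first at 84.4 ± 7.94 FPKM, above FOSL2 at 62.3 ± 7.62 and JUN at 61.8 ± 8.43 FPKM, which overlapped.

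The make-up of each group of transcripts differed between treatments more than between replicates. FOSL1 supplied 25.1% and 24.1% of the summed FOS-group FPKM in pimasertib, 57.0% and 58.0% in palbociclib, and 79.5% and 77.2% in DMSO. FOSL2 supplied nearly all of the remainder, at 74.8% and 75.5% in pimasertib, 42.9% and 41.9% in palbociclib and 20.5% and 22.7% in DMSO. FOS and FOSB together stayed below 1% in every library.

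Among JUN-group transcripts, JUN supplied 32.1% and 31.0% in pimasertib, 57.2% and 58.4% in palbociclib and 72.6% and 65.9% in DMSO. JUND supplied 44.1% and 44.7% in pimasertib, 29.8% and 28.1% in palbociclib and 20.02% and 24.1% in DMSO, and JUNB 23.8% and 24.4%, 13.0% and 13.5%, and 7.41% and 10.0% in the same order of groups. In the shares of FOSL1, FOSL2, JUN, JUND and JUNB, palbociclib lay between pimasertib and DMSO without overlap. Shares within a group sum to 100%, so they are not separate observations. The level of FOSL2 itself overlapped between palbociclib and DMSO. No test was run on these shares, and with 2 libraries against 2 an exact two-sided permutation p cannot go below 0.333.

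The summed FPKM of the JUN group was 137 ± 8.14 in pimasertib, 107 ± 12.9 in palbociclib and 103 ± 1.03 in DMSO, and that of the FOS group 133 ± 9.06, 147 ± 15.5 and 256 ± 65.1 FPKM. FOS-group transcripts thus exceeded JUN-group transcripts in both palbociclib and both DMSO libraries, and fell just below them in both pimasertib libraries, at 139 against 143 FPKM in replicate 1 and 126 against 131 FPKM in replicate 2.

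**Figure D3:**
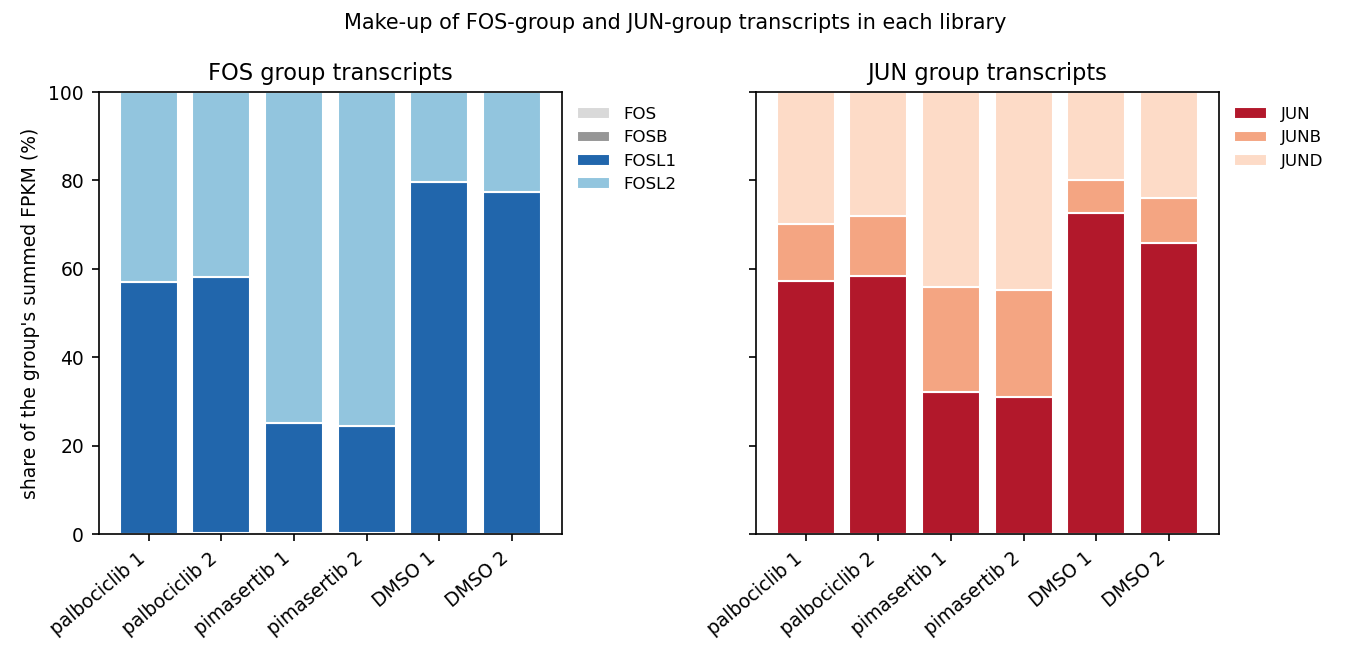
Share (%) of each member in the summed FPKM of the FOS group (left) and the JUN group (right), stacked to 100% for each of the 6 libraries. In pimasertib FOSL2 takes 74.8% and 75.5% of the FOS group and JUND is the largest part of the JUN group, while in DMSO FOSL1 and JUN are the largest parts, and palbociclib lies between.

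Textbook targets of AP-1 moved in both directions with pimasertib. Of 36 targets listed, 31 were tested, of which 15 fell and 7 rose, with a median log2 fold change of -1.07, against a median of 0.00 over all tested genes, of which 11.7% fell and 11.1% rose. The list was drawn up with earlier results of these data known, so these shares describe the listed genes and are no independent test of AP-1 targets. MMP1, the interstitial collagenase long used as an AP-1 reporter gene, was at 0.576 and 1.03 CPM in pimasertib and at 20.4 and 47.2 CPM in DMSO, a log2 fold change of -5.39 (SE 0.49; edgeR adjusted p = 8.78e-05). IL8, which encodes the neutrophil chemokine now named CXCL8, was at 1.27 and 1.68 CPM in pimasertib and at 39.0 and 54.6 CPM in DMSO, a log2 fold change of -4.99 (SE 0.33; edgeR adjusted p = 1.63e-05). For both genes the groups were far apart, with 10 to 26 reads per pimasertib library.

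HMGA1 and HMGA2, architectural chromatin proteins, fell by 2.98 (SE 0.26; edgeR adjusted p = 7.48e-05) and by 2.96 (SE 0.24; edgeR adjusted p = 5.49e-05) on the log2 scale. HMOX1, heme oxygenase, rose by 2.40 (SE 0.21; edgeR adjusted p = 7.08e-05). MMP1, IL8, HMGA1, HMGA2 and HMOX1 were each called under all 14 alternatives. MMP2, gelatinase A, rose by 2.71 (SE 0.51; edgeR adjusted p = 0.00457), but not without DMSO replicate 1 (0.0883) or pimasertib replicate 2 (0.0550). ITGB4, integrin beta 4, rose by 2.59 (SE 0.73; edgeR adjusted p = 0.0295), but not without DMSO replicate 1 (0.0805) or either pimasertib library (0.122 and 0.135). Without pimasertib replicate 1, 9 targets fell and 5 rose.

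With palbociclib, 1 of the 31 targets fell and none rose (5 higher and 2 lower at an unadjusted p under 0.05), with a median of -0.01. Over all tested genes 2.44% fell and 1.11% rose, so the targets did not stand above the background. The target that fell was MMP3, stromelysin, at 4.84 and 6.16 CPM in palbociclib and 12.2 and 14.1 CPM in DMSO, a log2 fold change of -1.25 (SE 0.28; edgeR adjusted p = 0.0398). This call was lost in each fit that left out 1 library, with adjusted p between 0.0709 and 0.121. DESeq2 called 2 targets lower and none higher, and limma-voom called 1 lower and none higher. In pimasertib against palbociclib, 4.31% of all tested genes were lower and 5.07% higher. Between the drugs, 13 targets were lower and 5 higher in pimasertib than in palbociclib (7 and 4 without either pimasertib library), led by MMP1 (-5.15, SE 0.49; edgeR adjusted p = 1.49e-04) and IL8 (-4.86, SE 0.33; edgeR adjusted p = 2.80e-05). CCND1, the cyclin D1 partner of CDK4 and CDK6 (-3.42, SE 0.35; edgeR adjusted p = 2.52e-04), and HMGA2 (-3.31, SE 0.24; edgeR adjusted p = 4.65e-05) were also lower. HMOX1 (1.94, SE 0.20; edgeR adjusted p = 2.57e-04) and TNC, the matrix glycoprotein tenascin-C (1.79, SE 0.26; edgeR adjusted p = 0.00181), were higher. MMP2 was higher as well (1.80, SE 0.49; edgeR adjusted p = 0.0464), a call lost in 9 of the 14 alternatives, among them each fit without 1 library except that without palbociclib replicate 2, with adjusted p of 0.0621 to 0.324 in those fits.

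**Figure D4:**
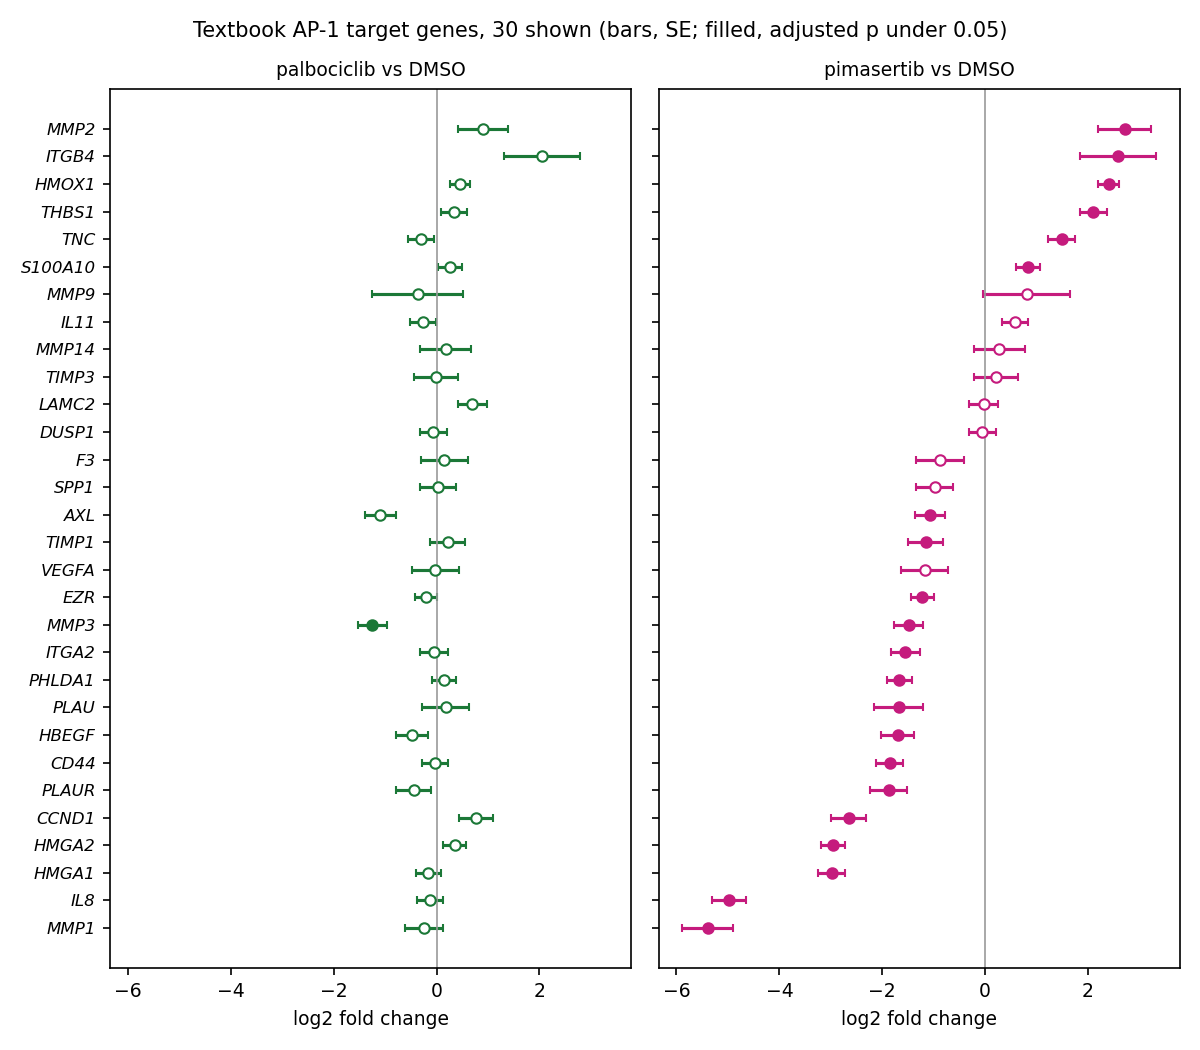
Log2 fold changes (horizontal axes) with SE bars of 30 of the 31 tested AP-1 target genes in palbociclib (left) and pimasertib (right) against the same DMSO libraries, ordered by the pimasertib value, with filled circles for an adjusted p under 0.05. In pimasertib 15 filled circles lie left of 0 and 6 right of it, while in palbociclib only MMP3 is filled.

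Other bZIP genes encode possible dimer partners. Of 24 listed, 22 were tested, and with pimasertib 2 rose and 2 fell, against 11.1% higher and 11.7% lower over all tested genes, so the list did not stand above the background. MAFF, a small MAF protein, was at 2.94 and 3.17 CPM in pimasertib and 28.7 and 30.4 CPM in DMSO (log2 fold change -3.27, SE 0.24; edgeR adjusted p = 3.32e-05), a call held under all 14 alternatives. NFE2, a MAF partner known from megakaryocytes, had 34 and 31 counts in pimasertib and none in either DMSO library, at least 10.3-fold higher against a floor of 3 counts per DMSO library (edgeR adjusted p = 0.00443, but 0.0501 and 0.0596 without pimasertib replicates 1 and 2). CEBPD rose (1.22, SE 0.30; edgeR adjusted p = 0.0158) and ATF5 fell (-0.74, SE 0.21; edgeR adjusted p = 0.0282), and neither passed without DMSO replicate 1 (0.105 and 0.189) or either pimasertib library (0.0771 and 0.0987 for CEBPD, 0.0798 and 0.186 for ATF5). With palbociclib none of the 22 passed by edgeR, DESeq2 or limma-voom, and 3 had an unadjusted p under 0.05. Between the drugs MAFF was lower in pimasertib (-2.81, SE 0.24; edgeR adjusted p = 7.47e-05) and no other partner passed.

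Of 31 kinases and regulators upstream of AP-1, 30 were tested. With pimasertib 5 fell and 2 rose, with a median of -0.20, and the 7 calls among 30 are a share near the 22.8% of all tested genes. ELK3, a ternary complex factor that binds with SRF, was at 52.3 and 55.4 CPM in pimasertib and 151 and 180 CPM in DMSO (log2 fold change -1.62, SE 0.21; edgeR adjusted p = 5.38e-04), a call held under all 14 alternatives. MAP2K1, which encodes MEK1, fell by 1.18 (SE 0.22; edgeR adjusted p = 0.00405, but 0.0628 without pimasertib replicate 2), and so did ELK1 (-0.84, SE 0.20; edgeR adjusted p = 0.0137, but 0.0560 without DMSO replicate 1 and 0.126 without pimasertib replicate 2). MAPK9, the kinase JNK2 (-0.81, SE 0.19; edgeR adjusted p = 0.0144), and MAPK3, the kinase ERK1 (0.94, SE 0.23; edgeR adjusted p = 0.0164), were lost without DMSO replicate 1 (0.0813 and 0.0965) or either pimasertib library (0.0564 and 0.118 for MAPK9, 0.0838 and 0.0872 for MAPK3). MKL1, the SRF coactivator MRTF-A (0.60, SE 0.19; edgeR adjusted p = 0.0439), was lost in 5 of the 6 fits that left out 1 library (0.0718 to 0.168), all but that without palbociclib replicate 2. With palbociclib none passed by edgeR or limma-voom, 1 was lower by DESeq2, and 8 had an unadjusted p under 0.05. Between the drugs MAP2K1, ELK3 and RPS6KA2, the ribosomal S6 kinase RSK3, were lower in pimasertib (edgeR adjusted p = 0.00676, 0.0369 and 0.00671), but MAP2K1 not without pimasertib replicate 2 (0.0984), RPS6KA2 not without either pimasertib library (0.0698 and 0.0760) and ELK3 not without any 1 of the 4 drug-treated libraries (0.108 to 0.198).

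FOS, JUN, JUNB and ATF3 are also induced by scraping and handling of cells, and the cells here were scraped, so 29 other genes of that response are given beside them. ATF4 and DDIT3 stand both in this list and among the bZIP partners. The summed level of the 29 genes was 5633 to 6642 CPM in pimasertib, 6875 to 8409 CPM in palbociclib and 8533 to 11035 CPM in DMSO. Of the 27 tested, 6 fell and 2 rose with pimasertib (none passed without pimasertib replicate 2), and their median was -0.33 on the log2 scale, beside 11.7% lower, 11.1% higher and a median of 0.00 over all tested genes. The heat shock genes HSP90AA1 (-1.32; edgeR adjusted p = 0.00961) and HSPH1 (-1.29; edgeR adjusted p = 0.00428), MCL1, an anti-apoptotic BCL2 relative (-1.24; edgeR adjusted p = 0.00535), and IER5 (-0.92; edgeR adjusted p = 0.00785) fell. GADD45B, a stress-response gene (1.18; edgeR adjusted p = 0.0126), and CYR61, a matricellular gene now named CCN1 (1.18; edgeR adjusted p = 0.0218), rose. The immediate-early gene EGR1 had 6 and 115 counts in palbociclib, 20 and 12 in pimasertib and 7 and 11 in DMSO, so 1 palbociclib library stood apart from the other 5. In palbociclib none of the 27 passed by edgeR or limma-voom, 1 was lower by DESeq2, and 6 had an unadjusted p under 0.05. Without palbociclib replicate 1, 2 were higher, and without DMSO replicate 2, 1 was lower. Between the drugs GADD45B (1.24; edgeR adjusted p = 0.0185) and CYR61 (1.58; edgeR adjusted p = 0.0107) were higher in pimasertib, and none of the list passed without either pimasertib library.

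The protein-coding genes whose profile over the 6 libraries was closest to each changed member were found among 9744 genes with a mean of at least 100 normalised counts, by the root-mean-square difference of centred log2 CPM. For FOSL1 these were KIF21B, SETBP1 and E2F1, at 0.175 to 0.208. For FOSL2 they were SH3RF2, FOXO3 and MSRB2 (0.0644 to 0.0756), for JUN DCTPP1, BICD1 and HNRNPC (0.0557 to 0.0655), for JUNB CALB2, CTBS and GPX4 (0.0977 to 0.112) and for JUND WBP1L, NLRX1 and PARP9 (0.0860 to 0.0926). For BATF3 they were MLF1IP, UBE2S and E2F1 (0.177 to 0.230), so E2F1 was among the nearest to both FOSL1 and BATF3. The nearest to ATF3, GPR124, SIRPA and FAM49A, lay at 0.531 to 0.619, farther than for any other member. These distances describe 6 libraries in 3 groups and carry no test.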

How the data were processed

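The authors deposited raw read counts per gene, FPKM values and their own comparison with DMSO in 1 table per drug. Per the submitters' processing notes, the tools were STAR 2.5, HTSeq 0.6.1, CASAVA and DESeq2. Builds are given there as GRCh37 and hg19, and settings are not. Deposited FPKM equals the read count divided by the listed gene length and the library total, tested on the files. The tables also hold the authors' log2 fold changes with p-values, raw and adjusted, per the file headers. Only their calls and 1 adjusted p are cited, because plain ratios of the members' levels are larger than those fold changes. The DMSO counts of both tables match. Genes listed for only 1 drug were set to 0 in the other drug's libraries, and none of them had a DMSO read.

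The test on counts was edgeR 4.0.16 (R 4.3.3), with filterByExpr within groups (minimum count 10, minimum total 15), TMM scaling, 1 model of 3 groups over 6 libraries (glmQLFit, robust), glmQLFTest, two-sided. The SE is the absolute log2 fold change over the square root of F. The code was tested on simulated data. The 14 alternatives used RLE or upper-quartile scaling, no filter or a minimum count of 50, DESeq2 1.42.0, limma-voom (limma 3.58.1), the comparison's 4 libraries, a replicate term, or left out 1 library. Promoters are from RefSeq, and exons were taken from GENCODE on GRCh38. Of each list, up to 4 called genes per direction are named, largest change first, and for each changed member the 3 nearest genes. In the target list 1 gene is counted but not reported here by name. BATF, KRT5, ESRP1, TYROBP, PECAM1 and ERG were in neither table and CXCL8 was matched as IL8 by its ID. Chi-square per degree of freedom between replicates was 42.4 to 57.5, above counting noise. Floors of 3 counts cover counting error only. The members and lists were chosen with earlier results of these data known.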

Additional observations from a re-analysis of the deposited data

How the results depend on the processing

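With pimasertib against DMSO, 7 members were called in every alternative that kept all libraries of the comparison, and 4 to 7 when 1 library was left out. With palbociclib 1 member was called, but 2 with no filter on low counts, 0 from the comparison's 4 libraries and 0 to 2 when 1 library was left out. Between the drugs 4 were called, 1 to 4 with 1 library left out and 5 with DESeq2, which added FOSL2. Of the AP-1 targets, 14 to 24 were called with pimasertib against DMSO, 11 to 19 between the drugs and 0 to 2 with palbociclib when 1 library was left out. With palbociclib 0 targets were called with upper-quartile scaling or from the comparison's 4 libraries, 2 with DESeq2 and 3 with no filter. In 3 uncalled cases the sign turned. With 1 library left out, the log2 fold change in palbociclib was -0.22 to 1.89 for FOSB and -0.029 to 0.35 for FOSL2, both lowest without DMSO replicate 2. Between the drugs FOSB was at -0.18 to 0.78, lowest without pimasertib replicate 2. Of 331 refits of single members' fold changes 300 kept their direction and their side of the threshold. The subunit shares from CPM per gene length are the same by construction, since FPKM uses the same counts and lengths, so they are no check on the shares.

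The replicate numbers are not said to mark shared cultures. The differences between replicates correlated across genes between groups (0.345 to 0.397), and a fit with the replicate block called 4 members with palbociclib, 7 with pimasertib and 7 between the drugs, and 11 targets with palbociclib. The members it added were JUNB, ATF3 and BATF3 with palbociclib (edgeR adjusted p = 0.0164, 0.0131 and 0.0131) and FOSL2, JUN and BATF3 between the drugs (6.47e-04, 0.00793 and 0.0456). Over all genes that fit called 2953, 6551 and 4702, against 526, 3376 and 1393. With palbociclib the count over all genes was 883 with DESeq2, 1097 with no filter and 325 from the comparison's 4 libraries, and between the drugs 2256 with no filter. With 1 library left out it was 334 to 762 with palbociclib, 1055 to 4082 with pimasertib and 456 to 1941 between the drugs. Depth limits FOS and FOSB, with at most 14 counts per library, and BATF3 and ATF3 in their lowest libraries.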
